A study of Mus musculus with 38 samples.

Results

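The glutathione, thioredoxin and peroxidase families are the enzymes with which a cell clears peroxides and other reactive oxygen species. The genes were taken from the array's RefSeq accessions: every row with a single current symbol beginning with Gst and a letter, Gpx, Prdx, Txn, Glrx, Sod and a digit, Gcl, Hmox or Nqo, together with Gss, Gsr and Cat. Of the 82 mouse symbols that match this pattern, 43 were on the arrays, among 21618 probes of which 6518 could be given a symbol. These 43 were 14 glutathione S-transferases, 5 glutathione peroxidases, 6 peroxiredoxins, 10 thioredoxins with their reductases and thioredoxin-domain proteins, 2 superoxide dismutases, 2 genes of glutathione synthesis, catalase, and 3 heme oxygenases and quinone oxidoreductases. The other 39, of which 10 are pseudogenes, were not matched to a row, and they include Gclc, Gsr, Nqo1, Sod1 and every glutaredoxin, so these are not analysed here.

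Superoxide dismutases turn superoxide into hydrogen peroxide. Catalase, the glutathione peroxidases and the peroxiredoxins then reduce that peroxide to water, the glutathione peroxidases with electrons from glutathione and most peroxiredoxins with electrons from thioredoxin. Glutathione is built by glutamate-cysteine ligase and glutathione synthetase, thioredoxin is recycled by thioredoxin reductase, and glutathione S-transferases couple glutathione to reactive compounds such as lipid aldehydes. Many of these genes are induced by the transcription factor Nrf2 through the antioxidant response element in their promoters, and the question put to the data was whether their transcripts moved in spleen after a low dose of radiation.

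Spleen RNA of male mice aged 10 to 14 weeks by the labels was taken 3.5 h after a dose of 10 rad of X-rays or after sham exposure, and each array held RNA of an irradiated mouse and of a sham-exposed mouse in the 2 dyes Cy3 and Cy5. There were 38 arrays: 8 from A/J, 8 from B6.C, 8 from BalbxJ, 6 from C3H, 4 from BI6Jx and 4 from DBA/2J, these being the strain names of the labels, and in each strain the irradiated RNA was in Cy5 on as many arrays as in Cy3 (19 and 19 in all). The pairs of mice were hybridised again with the dyes swapped, but the labels do not tie the arrays of a pair together. The test over strains therefore took strains as units. The tests between strains and within strains took arrays as units. Arrays that share mice counted there as independent, so p-values of those tests may be too small. The deposited values are signed scores. No source used here gives their log base or says which dye a positive score favours. For that reason no fold change is printed, and a "positive side" and a "negative side" stand in place of induction and repression.

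Each array was centred on its median and its sign was turned where the irradiated RNA was in Cy3. The mean of both orientations is called the strain value, and the response is the mean of the 6 strain values with its standard error (SE). Of the 43 genes, 31 were measured on 19 or more arrays, with each orientation present in all 6 strains, and were tested with the other probes, 14513 in all. Between 21 and 41 of the 43 genes had a value on a given array. Directions in 2 strains rest partly on arrays of unsettled sign, taken to be those with a correlation under -0.3 over all probes with 3 or more arrays of their own orientation. Array 97 of BI6Jx had 8 such correlations, array 50 of B6.C 4 and array 53 of B6.C 3. Other arrays had at most 2, though the lowest of these also reached -0.658 (array 88 with array 97). With the 3 unsettled arrays turned, 13 of 31 strain values in BI6Jx and 17 of 31 in B6.C changed sign. Markers of another tissue moved between arrays. Of 11 tested markers of pancreas, which lies against the spleen, 10 had means on the negative side, 5 had an unadjusted p under 0.05, and the list's median ran from -4.33 on array 46 to 1.85 on array 88, both of A/J. Of all probes, 48.7% had positive means and 8.21% an unadjusted p under 0.05 by the same limma test. The part of the pancreas markers in the results below was not tested. The lists for B cells, T cells, macrophages and red cells, the defining cells of spleen, had values on a median of 28.5 to 37 arrays a gene and median responses between -0.169 and 0.0114. Only 3 T cell and 4 macrophage genes were tested. The medians of these lists moved between arrays as well. They ran from -1.45 to 1.07 for B cells, -2.14 to 2.73 for T cells, -1.59 to 2.63 for macrophages and -1.81 to 0.811 for red cells. The neutrophil list had a median response of 0.116, with 5 of 7 tested genes on the positive side and 1 at an unadjusted p under 0.05. In whole spleen, fewer cells of a type and less RNA per cell cannot be told apart.

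The antioxidant response element has the core TGACNNNGC. It was searched on both strands of the RefSeq promoter windows of the assembly GRCm38.p6, which run from 250 bases before to 50 bases after an annotated start. Of the 43 genes 36 had a window, and 6 of these (16.7%) held the core, against 14.0% of all 27025 genes in the table. Gsta4, Gstt2, Hmox1, Prdx6, Sod3, Txnl1 and Txnl4a had no entry. The 6 matches are shown because the core is the element through which Nrf2 acts on such genes, with the core in capitals, 5′ to 3′ on the strand that carries it.
Gsta3: caggcaTGACATTGCattttt
Gstm5: gcccacTGACCACGCggaggg
Gstm7: aagaccTGACAAAGCgaagcc
Gclm: gagagtTGACGGTGCgcccgg
Prdx1: gggggaTGACTCAGCgctttc
Txnrd1: tcagaaTGACAAAGCaaaaat

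The windows were chr1:21240335-21240634 (plus strand) for Gsta3, chr3:107895604-107895903 (plus) for Gstm5, chr3:107931565-107931864 (minus) for Gstm7, chr3:122245307-122245606 (plus) for Gclm, chr4:116685349-116685648 (plus) for Prdx1 and chr10:82858956-82859255 (plus) for Txnrd1. The core lay on the gene's own strand in Gsta3, Gstm5 and Gstm7, and on the opposite strand in Gclm, Prdx1 and Txnrd1. Its first base along the gene was 121, 42, 129, 134, 133 and 92 bases before the annotated start that lies inside the window, in the order of the sequences above. For Gstm7, with 2 windows, and Txnrd1, with 3, the core was found in 1 window, and it lay inside the annotated gene, before a start that is not the outermost one. In Prdx1 the core is part of TGACTCAGC, which also contains the AP-1 site TGACTCA.

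Over the 6 strains, none of the 31 antioxidant genes passed the test. The limma test with Benjamini-Hochberg adjustment called 0 of 31 genes and 0 of 14513 probes (0%), and at an unadjusted p under 0.05 it held 1 of 31 genes against 8.21% of all probes. The same test with the ordinary variance of each probe also called 0, and held 935 probes and 0 of the 31 genes unadjusted. The means of the 31 genes ran from -0.603 for Prdx4 to 0.558 for Txn2, with a median of -0.0460 beside -0.00675 for all probes. Positive means were held by 12 of 31 genes, against 48.7% of all probes. No gene had 1 sign in all 6 strains, as 4.27% of all probes did. With the unsettled arrays turned or left out, Gpx4 was negative in all 6, settings for which no share of all probes is given. The median size of a gene's mean was 0.133, beside a median SE of 0.142, and the median SD over strains was 0.328 for the 31 genes and 0.383 for all probes.

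**Figure D1:**
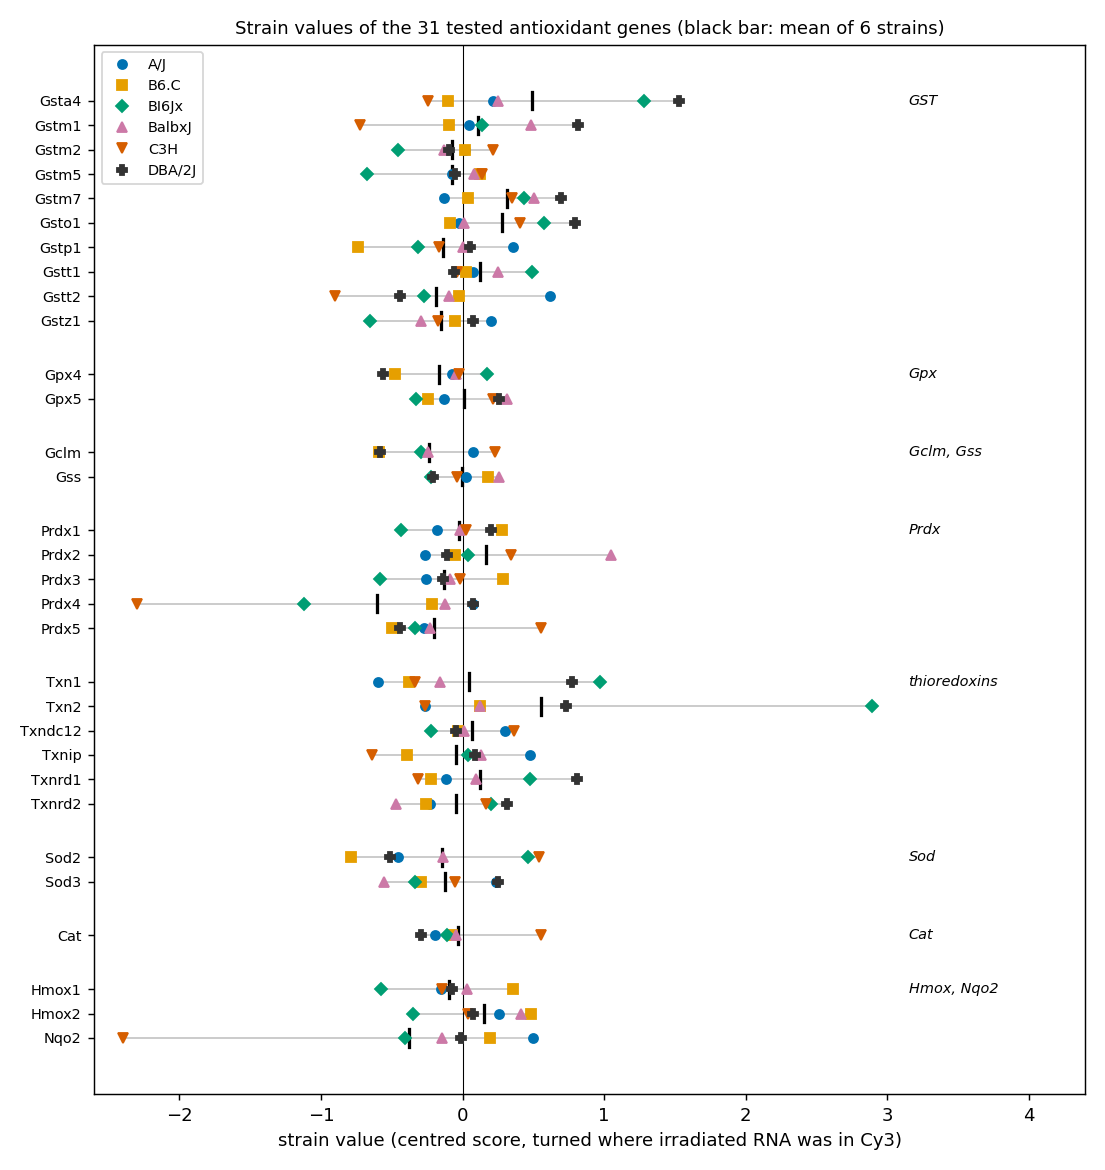
Strain values (centred scores, horizontal axis) of the 31 tested genes, grouped by family on the vertical axis, with a symbol for each of the 6 strains and a black bar at their mean. All genes have strains on both sides of 0, and the far points are Txn2 in BI6Jx (2.89), Nqo2 in C3H (-2.40) and Prdx4 in C3H (-2.30).

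Among the glutathione S-transferases, 5 of the 10 tested genes had positive means and 5 negative ones, and the family median was 0.0191. Gstm7, of the mu class, was the gene with the smallest p over strains. Its strain values were -0.131 in A/J, 0.0405 in B6.C, 0.433 in BI6Jx, 0.504 in BalbxJ, 0.352 in C3H and 0.697 in DBA/2J. It was thus positive in 5 strains, with A/J the exception, and B6.C near 0. With the unsettled arrays left out it was positive in 3, since BI6Jx became -0.105 and B6.C -0.0856, and with them turned it was also positive in 3. The mean was 0.316 (SE 0.138, n = 6 strains), with an adjusted p of 0.567 by limma, an unadjusted p of 0.0469 by the same fit, and p = 0.0938 in the exact two-sided sign-flip permutation test over strains, whose smallest possible p is 0.03125. The dyes opposed each other: the mean over arrays was 0.683 with irradiated RNA in Cy5 and 0.154, before turning, with it in Cy3. In DBA/2J the value rested on array 34 (3.19), and without that array the strain value was 0.0291.

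Gsta4 conjugates 4-hydroxynonenal, an aldehyde formed when lipids are oxidised. It stood at 0.213 in A/J, -0.104 in B6.C, 1.28 in BI6Jx, 0.248 in BalbxJ, -0.240 in C3H and 1.53 in DBA/2J. BI6Jx and DBA/2J stood above the other 4 strains, and the mean of 0.487 (SE 0.245, n = 6 strains) had an adjusted p of 0.567 by limma. In BI6Jx the arrays read 2.91 and 1.89 with irradiated RNA in Cy5, and 1.66 and -1.34 after turning with it in Cy3. The array at 1.66 is array 97, and the strain value was 0.528 without it and 0.450 with it turned. In DBA/2J only 1 array with irradiated RNA in Cy5 had a value, 3.23 on array 34, against 0.186 and -0.536 in Cy3. Within these strains the array fit gave unadjusted p-values of 0.00677 and 0.0359 and adjusted p-values by limma of 0.720 and 0.778.

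Gsto1, the omega-class enzyme that can reduce dehydroascorbate, had its highest strain values in the same strains, 0.792 in DBA/2J and 0.575 in BI6Jx, with 0.409 in C3H and between -0.0914 and 0.0127 in B6.C, A/J and BalbxJ (mean 0.279, SE 0.150, adjusted p = 0.567 by limma). The BI6Jx value was 0.104 without array 97 and -0.0379 with it turned. Gstp1, the pi-class enzyme, was lowest in B6.C at -0.741 and highest in A/J at 0.354, with a mean of -0.136 (SE 0.152). The B6.C value had the smallest p of the 31 genes in that strain (unadjusted p = 0.0376, adjusted p = 0.844 by limma). It included arrays 50 and 53 at -1.78 and -2.01, and with the unsettled arrays turned it became 0.208. Gstm1, another mu-class gene, ran from -0.723 in C3H to 0.814 in DBA/2J (mean 0.110, SE 0.188), the C3H value resting on 2 arrays. The other 5 tested transferases, Gstm2, Gstm5, Gstt1, Gstt2 and Gstz1, had means from -0.187 to 0.123. The mu-class genes are close in sequence, and how far their probes share signal was not tested.

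**Figure D2:**
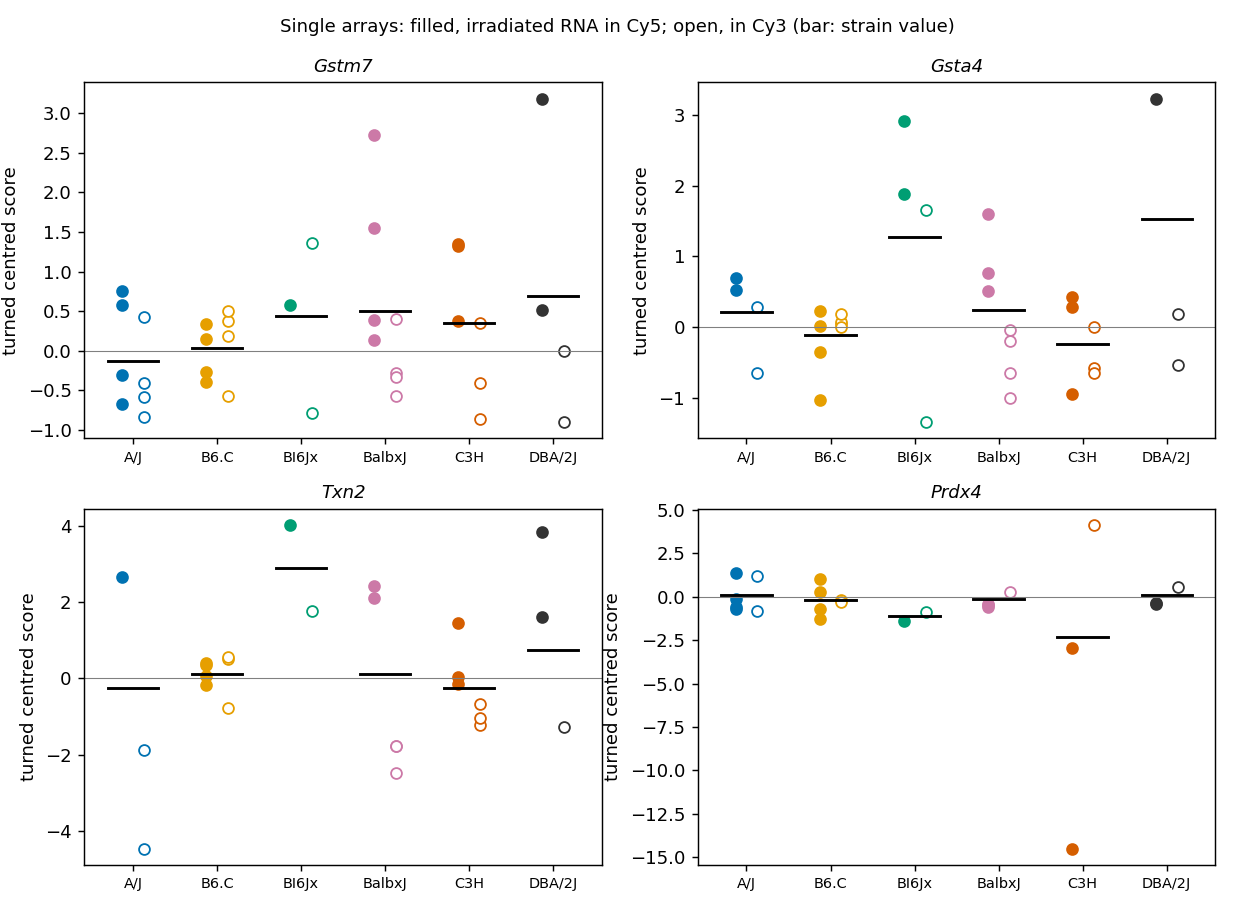
Turned centred scores (vertical axis) of single arrays for Gstm7, Gsta4, Txn2 and Prdx4 in the 6 strains (horizontal axis), with filled circles for irradiated RNA in Cy5, open circles for irradiated RNA in Cy3 and a bar at the strain value. Filled circles of Txn2 lie above open ones in all strains but B6.C, where the dyes mix, and the lowest Prdx4 point, -14.5 in C3H, is a single array.

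Of the glutathione peroxidases, Gpx4, which reduces lipid hydroperoxides within membranes, was measured on all 38 arrays. The strains read -0.0711 in A/J, -0.476 in B6.C, 0.174 in BI6Jx, -0.0494 in BalbxJ, -0.0215 in C3H and -0.558 in DBA/2J. It lay on the negative side in 5 of 6 strains, in 3 of them close to 0, with a mean of -0.167 (SE 0.133, adjusted p = 0.639 by limma). The exception, BI6Jx, was -0.126 without array 97 and -0.465 with it turned. Gpx5, the epididymal enzyme, had 3 strains on each side (mean 0.0139, SE 0.133). Gpx1, the main cytosolic enzyme, had values on 18 arrays and in both dyes of 4 strains, with strain values from -0.734 to 3.11. Gpx3, the plasma enzyme, had values on 34 arrays but in both orientations of 5 strains only, and its strain values were close together, from -0.127 to 0.486, with 4 of 5 on the positive side. Neither was tested.

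In glutathione synthesis, Gclm, the modifier subunit of the rate-limiting ligase, lay on the negative side in 4 of 6 strains. Its strain values were 0.0712 in A/J, -0.593 in B6.C, -0.293 in BI6Jx, -0.243 in BalbxJ, 0.230 in C3H and -0.584 in DBA/2J (mean -0.235, SE 0.144, adjusted p = 0.577 by limma). With the unsettled arrays left out BI6Jx was 0.119 and 3 strains were negative, and with them turned BI6Jx was 0.319, B6.C 0.0272 and 2 strains were negative. In C3H its arrays ran from -5.71 on array 27 to 6.11 on array 24, so that the strain value was 1.24 without the first and -0.764 without the second. Gss, the enzyme of the second step, had the smallest SD over strains of the 31 genes, 0.196, about a mean of -0.00266 (SE 0.118).

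The peroxiredoxins had negative means for 4 of 5 tested genes and a family median of -0.133. Prdx4, the peroxiredoxin of the endoplasmic reticulum, had the most negative mean of the 31 genes at -0.603 (SE 0.302, adjusted p = 0.567 by limma). Its strain values were 0.0726 in A/J, -0.215 in B6.C, -1.12 in BI6Jx, -0.125 in BalbxJ, -2.30 in C3H and 0.0717 in DBA/2J. C3H lay furthest out, followed by BI6Jx, and the other 4 lay near 0. The C3H value came from 3 arrays at -14.5 (array 29), -2.95 and 4.13 after turning, and the gene had values on 24 arrays in all. Without array 29 the strain value was 0.587 and the mean over strains -0.121.

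Prdx2, which is abundant in red cells, had strain values of -0.265 in A/J, -0.0537 in B6.C, 0.0400 in BI6Jx, 1.05 in BalbxJ, 0.345 in C3H and -0.113 in DBA/2J. BalbxJ stood apart (unadjusted p = 0.0134 and adjusted p = 0.544 in the limma array fit), and its value was carried by arrays 35 and 36 at 4.57 and 2.92, while its other 6 arrays lay between -0.624 and 1.08. The median of the red cell markers was 0.189 on array 35 and -0.304 on array 36 after turning. On these arrays 15.6% and 30.3% of all probes were above 2. Prdx5, found in mitochondria and peroxisomes, lay on the negative side in 5 strains, from -0.496 to -0.232, and at 0.557 in C3H (mean -0.203, SE 0.155, adjusted p = 0.623 by limma). Its BI6Jx value of -0.339 was 0.0717 without array 97 and 0.0129 with it turned. Prdx1, the main cytosolic member, had 3 strains on each side, from -0.437 in BI6Jx to 0.282 in B6.C (mean -0.0215, SE 0.129), the latter being 0.0763 without the unsettled arrays and -0.167 with them turned, and Prdx3 had a mean of -0.133 (SE 0.133).

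The thioredoxin family differed between strains in the side of its median. The median of its 6 tested genes was 0.524 in DBA/2J, 0.339 in BI6Jx, 0.0560 in BalbxJ, -0.175 in A/J, -0.240 in B6.C and -0.291 in C3H. On the positive side were 5 of 6 genes in DBA/2J and in BI6Jx (55.7% and 46.4% of all probes), 4 of 6 in BalbxJ (55.5%), 2 of 6 in A/J and in C3H (44.4% and 44.1%) and 1 of 6 in B6.C (43.7%). With array 97 turned, 3 of 6 genes in BI6Jx were positive and the median was -0.109, and without it 2 of the 5 genes still measured were positive and the median was -0.276. In B6.C 3 of 6 were positive with its unsettled arrays turned and 1 of 6 with them left out. In DBA/2J the values of Txn1, Txnrd1 and Txn2 fell without array 34 from 0.771, 0.808 and 0.731 to 0.137, 0.215 and 0.178. The SD of the 6 strain medians was 0.334, beside 0.298 for catalase, 0.281 for the superoxide dismutases, 0.276 for the heme oxygenases and quinone oxidoreductases, 0.167 for the peroxiredoxins and 0.0729 for the glutathione S-transferases, families of other sizes. Each strain's family median is a description, and no gene of the family passed the test of a difference between strains.

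**Figure D3:**
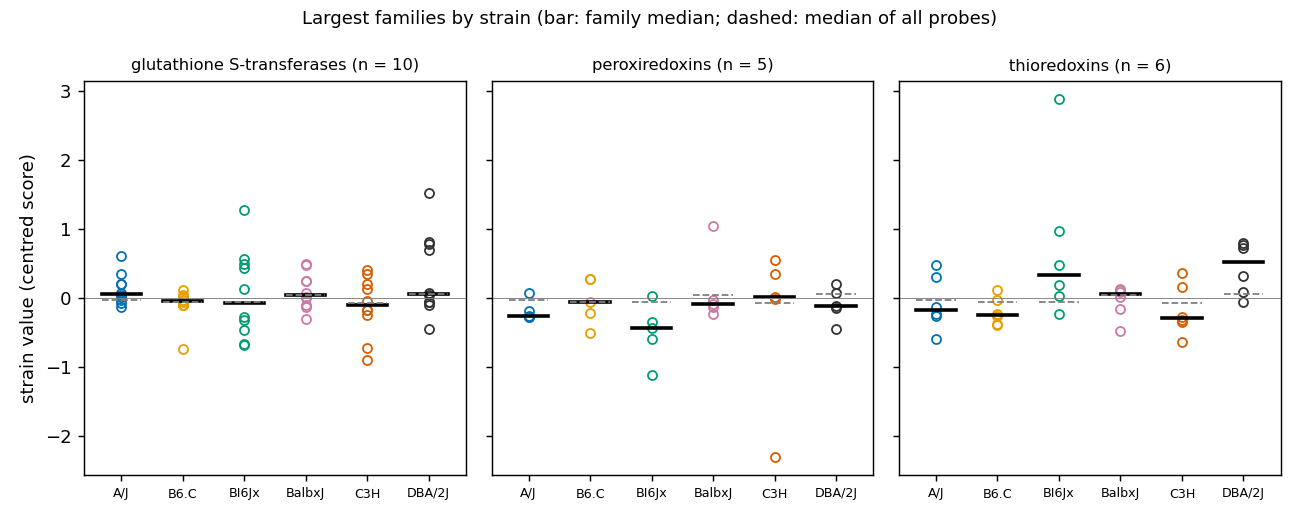
Strain values (centred scores, vertical axis) of the genes of the 3 largest families in each of 6 strains (horizontal axis), with open circles for genes, a black bar at the family median and a dashed line at the median of all probes. The thioredoxin medians are 0.524 in DBA/2J and 0.339 in BI6Jx, and -0.291 in C3H (-0.109 in BI6Jx with array 97 turned), whereas the glutathione S-transferase medians stay between -0.104 and 0.0644. Without array 34 the DBA/2J values of Txn1, Txnrd1 and Txn2 are 0.137, 0.215 and 0.178.

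Txn2, the mitochondrial thioredoxin, had the most positive mean, 0.558 (SE 0.376, adjusted p = 0.590 by limma), and the smallest p when strains were set against each other. The strain values were -0.263 in A/J, 0.126 in B6.C, 2.89 in BI6Jx, 0.126 in BalbxJ, -0.265 in C3H and 0.731 in DBA/2J. BI6Jx was well above the rest, on 2 arrays, 4.02 on array 96 and 1.76 on the unsettled array 97. With array 97 turned the BI6Jx strain value was 1.13. The F test that all strains respond alike had an unadjusted p of 0.0453 and an adjusted p of 0.834 by limma. That test held 1 of 31 genes unadjusted against 5.88% of all probes, and after adjustment 0 of 31 and 0 of 14513 (0%).

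Txn1, the cytosolic thioredoxin, was positive in 2 strains, 0.971 in BI6Jx and 0.771 in DBA/2J, and negative in the other 4, from -0.594 in A/J to -0.160 in BalbxJ (mean 0.0451, SE 0.223). Txnrd1, the cytosolic thioredoxin reductase, was likewise highest in DBA/2J (0.808) and BI6Jx (0.480) and lowest in C3H (-0.316), with a mean of 0.121 (SE 0.167). Its BI6Jx value was -0.344 without array 97 and -0.223 with it turned, whereas that of Txn1 was 0.873 and 0.804. For these genes too, array 34 held the highest DBA/2J value, 3.03 for Txn1 and 3.60 for Txnrd1, and without it the strain values were 0.137 and 0.215. On array 34, 6 of 30 of the genes with a value and 22.8% of all probes were above 2. Txnip, the protein that binds and inhibits thioredoxin, ran from -0.640 in C3H to 0.478 in A/J (mean -0.0491, SE 0.158). Txnrd2, the mitochondrial reductase, and Txndc12 had means of -0.0460 and 0.0638.

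The superoxide dismutases had negative means. Sod2, the mitochondrial enzyme, had values on 21 arrays, the fewest of any tested gene here, and its strain values ran from -0.787 in B6.C to 0.540 in C3H (mean -0.148, SE 0.193). In C3H the 3 arrays with irradiated RNA in Cy3 read 3.05, 2.85 and 3.61 after turning and the 2 in Cy5 read -1.77 and -2.41, so that the dyes opposed each other. Sod3, the extracellular enzyme, ran from -0.558 in BalbxJ to 0.250 in DBA/2J (mean -0.124, SE 0.142). Cat, the peroxisomal catalase, lay between -0.291 and -0.0455 in 5 strains and at 0.552 in C3H (mean -0.0284, SE 0.136). Its BI6Jx value of -0.111 was 0.350 with the unsettled arrays left out and 0.377 with them turned. The C3H value came from 4 arrays, and without array 26 (5.74) it was -0.756.

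Hmox1, the inducible heme oxygenase and a standard readout of Nrf2, was measured on all 38 arrays, with strain values of -0.153 in A/J, 0.355 in B6.C, -0.572 in BI6Jx, 0.0315 in BalbxJ, -0.143 in C3H and -0.0734 in DBA/2J. Strains lay on both sides of 0, and the mean was -0.0925 (SE 0.136, adjusted p = 0.797 by limma). The B6.C value was 0.236 without the unsettled arrays and -0.000974 with them turned. Hmox2, the constitutive form, was positive in 5 strains, from 0.0406 in C3H to 0.482 in B6.C, and at -0.351 in BI6Jx (mean 0.153, SE 0.137, adjusted p = 0.667 by limma). The B6.C value included 2.60 on array 53, and was 0.0431 without the unsettled arrays and -0.418 with them turned. Nqo2, a quinone reductase, had a mean of -0.378 (SE 0.329, adjusted p = 0.658 by limma) that rested on C3H at -2.40, and in C3H on array 25 at -19.9. Without that array the C3H value was 0.806 and the mean 0.155.

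Within single strains the array fit gave 186 responses of 31 genes. None had an adjusted p under 0.05 in the limma fit, where 0.122% of all probe and strain pairs did, and 7 (3.76%) had an unadjusted p under 0.05 against 6.51% of all pairs. BI6Jx held 3 of the 7 (Txn2, Gsta4 and Gstm5, against 6.39% of all probes in that strain), and B6.C, BalbxJ, C3H and DBA/2J held 1 each (5.77%, 8.29%, 12.0% and 6.20%), namely Gstp1, Prdx2, Prdx4 and Gsta4. A/J held none (0.420%), its smallest unadjusted p being that of Txn1 (0.145 in the limma fit, strain value -0.594). Of all probes, 74 passed the adjusted threshold in C3H (0.510%), 27 in B6.C (0.186%), 5 in BI6Jx (0.0345%) and 0 in the other 3 strains. The medians of the 31 genes by strain lay between -0.224 in BI6Jx and 0.0538 in DBA/2J.

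In most genes the dye component was larger than the response. The dye component of a gene, the mean of both orientations without turning, holds any bias of the dyes. A single far array also adds to it, as it does to the response. Averaged over strains, the dye component was larger in size than the mean response in 28 of 31 genes (90.3%), against 72.8% of all probes. It had 1 sign in all 6 strains for 5 of 31 genes against 12.7% of all probes. Txn2, Gstm1, Txnrd1 and Gsto1 were positive throughout, with mean dye components of 1.49, 0.918, 0.714 and 0.511, and Prdx1 was negative throughout at -0.301. For Txn2 the component was not the same in each strain: it was 2.91 in A/J, 2.13 in BalbxJ, 2.00 in DBA/2J, 1.13 in BI6Jx, 0.711 in C3H and 0.0348 in B6.C. The genes with the most positive mean responses, Txn2, Gsta4, Gstm7 and Gsto1, all had positive dye components. Prdx4 and Nqo2, with the most negative mean responses, had negative components of -1.27 and -0.799. In C3H these were -6.43 and -4.66, with Prdx4 at -14.5 on array 29 and Nqo2 at -19.9 on array 25. Component and response are computed from the same arrays, so these shared signs are a description only.

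**Figure D4:**
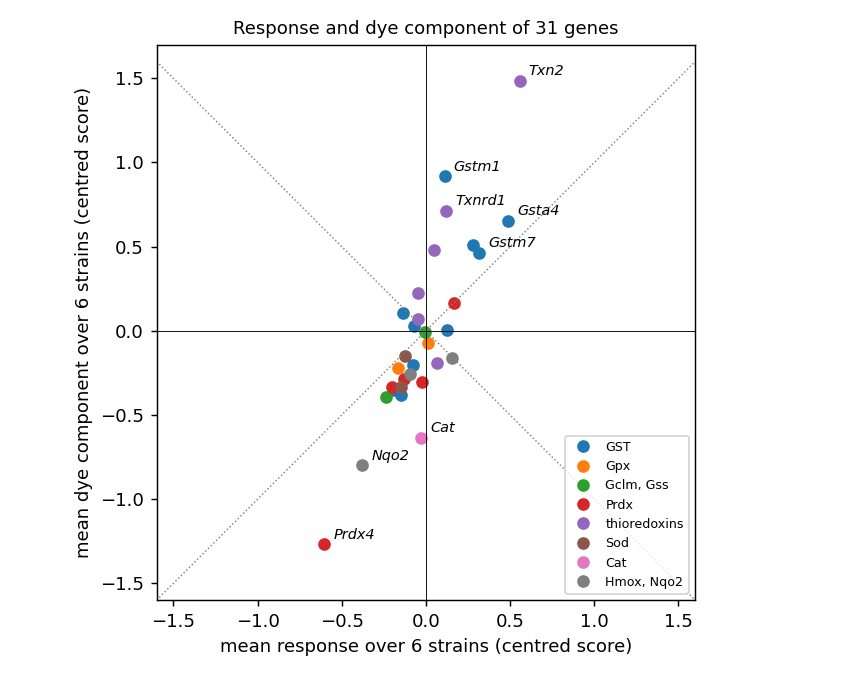
Mean response (horizontal axis) and mean dye component (vertical axis) of the 31 genes over 6 strains, both in centred scores and coloured by family, with dotted lines where both are equal in size. The points of 28 genes lie in the upper and lower sectors, where the dye component is the larger, among them Txn2 (0.558 and 1.49) and Prdx4 (-0.603 and -1.27).

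The wider oxidative stress pathway was read from a list of 78 other genes, of which 49 were on the arrays and 32 were tested. None passed the adjusted threshold, and 3 of 32 had an unadjusted p under 0.05, 2 on the positive and 1 on the negative side (4.27% and 3.94% of all probes). Ftl1, the light chain of the iron store ferritin, was negative in 6 of 6 strains, with strain values of -0.115 in A/J, -0.632 in B6.C, -0.987 in BI6Jx, -0.122 in BalbxJ, -0.452 in C3H and -1.80 in DBA/2J (mean -0.684, SE 0.217, adjusted p = 0.567 by limma). Nfe2l1, a transcription factor related to Nrf2, was positive in 6 of 6 strains, from 0.0373 in A/J to 1.18 in DBA/2J (mean 0.432, SE 0.166, adjusted p = 0.567). Park7, a protein sensitive to oxidation, was positive in 5 strains (mean 0.671, SE 0.249), and Akr1b3, aldose reductase, negative in 4 (mean -0.280, SE 0.127), both with an adjusted p of 0.567. Leaving out 1 array or strain moved the mean of Park7 between 0.310 (without array 97) and 1.03. The mean of Ftl1 moved between -0.820 and -0.462 (without array 34), and neither mean changed sign. Of the 32 genes 2 had 1 sign in all 6 strains, against 4.27% of all probes. In all 9 of the 32 had positive means, against 48.7% of all probes, and the median was -0.136, beside -0.00675 for all probes.

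Of the 5 genes with a core of the antioxidant response element that were tested, Gstm7 and Txnrd1 had positive means (0.316 and 0.121) and Gstm5, Prdx1 and Gclm negative ones (-0.0771, -0.0215 and -0.235). Their median was -0.0215, beside -0.0372 for the 22 tested genes whose windows held none, of which 9 had positive means.

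The 12 genes that missed the filter were Gsta1, Gsta2, Gsta3, Gstm6, Gpx1, Gpx3, Gpx7, Prdx6, Txndc17, Txndc8, Txnl1 and Txnl4a, with values on 2 to 34 arrays. Gsta2 varied most, from -13.6 to 12.5 over 11 arrays. Gsta3, an alpha-class transferase, was positive in each of the 3 strains in which both orientations were measured, from 0.472 to 1.42. Its 2 arrays lay on opposite sides of 0 after turning in BalbxJ (-0.349 and 2.55) and in C3H (-1.13 and 3.96). Txnl1, a thioredoxin-like protein, was negative in each of 3, from -0.714 to -0.122. Its arrays in A/J read 1.03 and -1.42 after turning, and in B6.C 3 of 5 were positive. With so few strains these genes were not tested.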

How the data were processed

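Spleen RNA of irradiated and sham-exposed mice was compared on 38 two-colour arrays. Per the paper's methods, the authors subtracted local background, dropped weak or poor spots and normalized within arrays by Lowess. They deposited 1 table with a signed score for each spot and array, no source used here stating its scale, log base, centring or dye direction. Array medians ran from -3.16 to 3.95, and precision is limited by how many arrays there are.

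Blank, buffer and control spots were removed (864, 275 and 96 of 23232), spots of a probe were averaged, and accessions were matched to current symbols of GRCm38.p6. Arrays were centred on their medians and turned where irradiated RNA was in Cy3. The 6 strain values were tested against 0, and strains against each other on arrays with 1 dye term, in limma 3.58.1 (R 4.3.3) with Benjamini-Hochberg adjustment over 14513 probes. Arrays of swapped dyes share mice, so p-values of the array fit may be too small. The sign-flip test enumerates 64 arrangements. The functions were tested on simulated data.

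Fully described were the 10 genes with the smallest p over strains, the 5 with the smallest p between strains, the smallest in each strain, textbook members of each family, and 4 of the pathway list. The genes and lists were chosen with earlier results of these data known. Other centrings, scalings, filters, spreads, weights, dye terms and orientations were tried, unsettled arrays were turned or left out, and each array and strain was left out in turn.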

Additional observations from a re-analysis of the deposited data

Results flagged for a closer look

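The strain values of the 21 genes described in full, and the arrays behind the smallest p of a strain where 4 to 10 had a value, were examined for a point set apart from the rest by more than Dixon's 95% limit, which chance passes in about 1 of 20 groups. Of 24 such groups, with the unsettled arrays taken as labelled, 4 held one, in each case a strain. Txn2 was at 2.89 in BI6Jx, with the next strain at 0.731. Prdx5 was at 0.557 in C3H, with the next at -0.232, and its C3H arrays were positive in both orientations except array 28 (-0.276 after turning). Nqo2 was at -2.40 in C3H, with the next at -0.409, and rested on array 25. Cat was at 0.552 in C3H, with the next at -0.0455, and rested on array 26. The limit was not applied again with the unsettled arrays turned or left out. With them turned, BI6Jx was 1.13 for Txn2, 0.0129 for Prdx5 and 0.377 for Cat, which narrowed the gap to the next strain. With them left out, BI6Jx was 0.0717 for Prdx5 and 0.350 for Cat, and had no value for Txn2. For Nqo2, BI6Jx moved away from C3H, to 0.624 turned and 0.277 left out. C3H, which holds 3 of the 4, also holds the array on which the scores of the tested probes varied most (SD 2.10, array 27).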

How the results depend on the processing

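No paired analysis was possible because the labels do not tie the dye-swapped arrays of a pair of mice together, and replicate numbers here only name arrays in order of accession. Of the alternatives other than leaving out an array or a strain, most kept each result on its side of the threshold. Over the 6 strains, 31 probes but 0 of the 31 genes passed the adjusted threshold when arrays were used as deposited. The test of a difference between strains called 1 probe with only probes measured on all arrays, 1 with the unsettled arrays left out, 105 with a dye bias in each strain, 816 on the arrays with irradiated RNA in Cy5 and 950 on those with it in Cy3. On the arrays of a single orientation it called 2 of the 31 genes each, beside 816 and 950 of all probes, so such calls were not particular to these genes. Gsta4 had an adjusted p of 0.0276 and Txn2 of 0.0458 in Cy5, and Txn2 of 0.0401 in Cy3, by the limma F test. A single orientation cannot separate a response from a dye bias that differs between strains. With a dye bias in each strain 1 response within a strain passed, Txn2 in BI6Jx (adjusted p = 0.0463 by limma), on 2 arrays. With only probes measured on all arrays the glutathione S-transferases were reduced to 1 gene, Gstp1, whose mean of -0.136 then stood for the family.

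Several values changed sign, most of them means near 0 but also Gstp1 in B6.C (-0.741) and the mean of Nqo2 (-0.378). As deposited, Hmox1 was 0.0203, Gss 0.106, Cat 0.0517, Prdx1 0.126 and Gstp1 in B6.C 0.200. Scaled by the median absolute deviation, Txn1 was -0.0828 and Gss 0.103. With unsettled arrays turned, Gstp1 was 0.0741, Prdx2 -0.0151, Gss 0.145, Cat 0.0530 and Gstp1 in B6.C 0.208. With them left out, Txnrd1 was -0.00727, Gss 0.114, Cat 0.0485, Prdx1 0.0205 and Gstm1 -0.00399. With arrays as units, Txn1 was -0.109, Gss 0.0291, Sod2 0.0442 and Prdx1 0.00301. With strains weighted by their arrays, Txn1 was -0.109 and Gss 0.0441, and with medians of arrays Nqo2 was 0.145. The cause of these changes was not tested.

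Leaving out 1 array or strain moved Cat between -0.246 and 0.190, Gss between -0.110 and 0.104, Gstm1 between -0.0303 and 0.277, Hmox1 between -0.182 and 0.00353, Nqo2 between -0.655 and 0.155, Prdx1 between -0.0822 and 0.0616, Prdx2 between -0.00911 and 0.254, Txn1 between -0.140 and 0.173, Txnrd1 between -0.0162 and 0.258, and Prdx4 in C3H, by the array fit, between -8.55 without array 28 and 0.587 without array 29. Probes called for a difference between strains ranged from 0 to 187 (without array 29 of C3H), and responses within strains from 0 to 1 (Prdx4 in C3H, adjusted p = 0.00292 by limma without array 28). Array 28 is the only C3H array of Prdx4 with irradiated RNA in Cy3. Without it 2 arrays in Cy5 remain, which cannot separate a response from a dye bias that differs between strains.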
